A study of Mus musculus with 21 samples.

Results

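Fibroblasts from silica-treated lungs at day 7 (SiO2 day 7) were set against fibroblasts from bleomycin-treated lungs at day 14 (BLM day 14), which is 6 of the 21 libraries of the series. The pair was chosen because the groups stood at a similar level of Col1a1, the gene of the main chain of type I collagen, so that the models are matched by stage of collagen expression and not by day. Agent and day therefore differ together between the groups and cannot be told apart from this pair alone. The SiO2 day 14 and BLM day 7 libraries, which hold the same agents with the days exchanged, are given beside it where they bear on a result.

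Bleomycin is an antibiotic that breaks DNA, and a single dose gives a lung injury with inflammation, then scarring, then repair. Crystalline silica is a mineral dust that macrophages take up and cannot clear, and the lesions around it persist; the series describes the silica model as progressive and the bleomycin model as reversible. In both, lung fibroblasts divide, lose genes of the resting alveolar fibroblast and secrete collagen, fibronectin and other matrix proteins. Fibroblasts also answer interferons and the cytokines of injured tissue, and make chemokines that draw in leukocytes.

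All mice were female C57BL/6 mice that carried the Col1a2-GFP transgene, in which the promoter of the type I collagen gene Col1a2 drives green fluorescent protein. The SiO2 day 7 group (3 libraries) had received crystalline silica at 400 mg/kg, and the BLM day 14 group (3 libraries) bleomycin sulfate at 2 mg/kg, each as a single oropharyngeal aspiration. The SiO2 day 14 and BLM day 7 groups received the same doses, as did the SiO2 day 63 and BLM day 63 groups. The day 63 groups are used for the course of Col1a1 and of list sums and for the shared fit. An untreated group completes the set used here, with 3 libraries in each group. Each library came from 10000 living fluorescent cells sorted after magnetic removal of leukocytes (CD45), endothelium (CD31), epithelium (EpCAM), pericytes (CD146) and red cells (Ter119), so the gate selects cells that use the Col1a2 promoter. The age of the mice is not given in the sources used here. Whether the libraries of a group came from separate mice is not stated, and p-values then measure the spread between these libraries, which may in part be technical.

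Tags from the 3′ ends of polyadenylated RNA were counted per gene symbol. The 6 libraries held 2904599 to 4159193 counts, against 2080636 to 4477283 over all 21, with 0.357% to 0.493% on ribosomal RNA symbols in the 6. Defining genes of depleted cells were near 0: Ptprc (CD45), Pecam1 (CD31) and Epcam had 0 to 2 counts in each of the 6 libraries, and Mcam (CD146) had 0 to 7. Secreted products of lung epithelium had a few counts: Sftpa1 had 4, 4 and 4 counts in SiO2 day 7 and 0, 1 and 0 in BLM day 14, and Scgb1a1 had 10, 9 and 1 counts in SiO2 day 7 and 0, 1 and 2 in BLM day 14. Levels are given as counts scaled to the library size after TMM scaling (CPM), and differences as SiO2 day 7 minus BLM day 14 on the log2 scale with their standard error. Of 11669 genes tested, 1358 (11.6%) were called at an adjusted p under 0.05 by edgeR's quasi-likelihood test, 662 (5.67%) higher and 696 (5.96%) lower in SiO2 day 7; without BLM day 14 replicate 3 the higher genes numbered 426. The median difference of all tested genes was 0.01. The SiO2 day 7 and BLM day 14 libraries did not overlap in CPM for 3173 of the 11669 genes, so lack of overlap alone was common. The shares of 5.67% higher and 5.96% lower are the background for every list count below. A count near them is no result about its list. Every difference of SiO2 day 7 minus BLM day 14 given below for a gene passed that test unless the text says that it did not. Agent parts, day parts and differences within a day are given as values, whether or not they passed. Some libraries stood apart within their groups: BLM day 14 replicate 1 on genes of cell division, SiO2 day 7 replicate 1 and BLM day 7 replicate 1 on interferon-response genes, and the values that rest on them are given library by library. In bulk RNA, more cells of a type and more RNA per cell cannot be told apart.

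Col1a1, which chose the pair, stood at 4012, 4453 and 4669 CPM in the SiO2 day 7 libraries and at 3956, 3316 and 3414 CPM in the BLM day 14 libraries, so the highest BLM day 14 library came just under the lowest SiO2 day 7 library. The other groups were all lower: Col1a1 averaged 2293 ± 367 CPM at SiO2 day 14, 1228 ± 24.3 at SiO2 day 63, 1917 ± 495 at BLM day 7, 565 ± 53 at BLM day 63 and 689 ± 27.4 in untreated mice (SD, n = 3 each). SiO2 day 7 and BLM day 14 were thus the highest of the 3 sampled days in each model. Because the pair was picked on this gene, the fibrillar collagens are described here without a test, and genes that move with Col1a1 in these libraries are not independent of the choice of the pair.

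The partner chain Col1a2 had 6669, 5980 and 6436 CPM in SiO2 day 7 and 6637, 6335 and 6060 CPM in BLM day 14, and its libraries interleaved. Col3a1, the type III chain that is laid down early in repair, had 8702, 8686 and 7450 CPM in SiO2 day 7 and 9533, 8692 and 8771 CPM in BLM day 14, again with overlapping ranges. Summed over the 10 fibrillar chains tested, the libraries held 20910, 20600 and 20150 CPM in SiO2 day 7 and 21910, 19710 and 19730 CPM in BLM day 14, against 4469, 5087 and 5050 CPM in untreated mice. These sums include Col1a1, which chose the pair, and chains that move with it, so their closeness is not independent of that choice. Minor chains stood apart: Col24a1 had 170.3, 173 and 148 CPM in SiO2 day 7 and 74.9, 71.1 and 67.7 CPM in BLM day 14, with no overlap. Col5a3 had 65.5, 81 and 101 CPM in SiO2 day 7 and 66.8, 37 and 27.4 CPM in BLM day 14, and overlapped through replicate 1 of each group. Col5a2, a chain of type V collagen that sets fibril diameter, lay the other way, at 423, 358 and 418 CPM in SiO2 day 7 and 579.5, 526 and 525 CPM in BLM day 14, with no overlap.

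**Figure D1:**
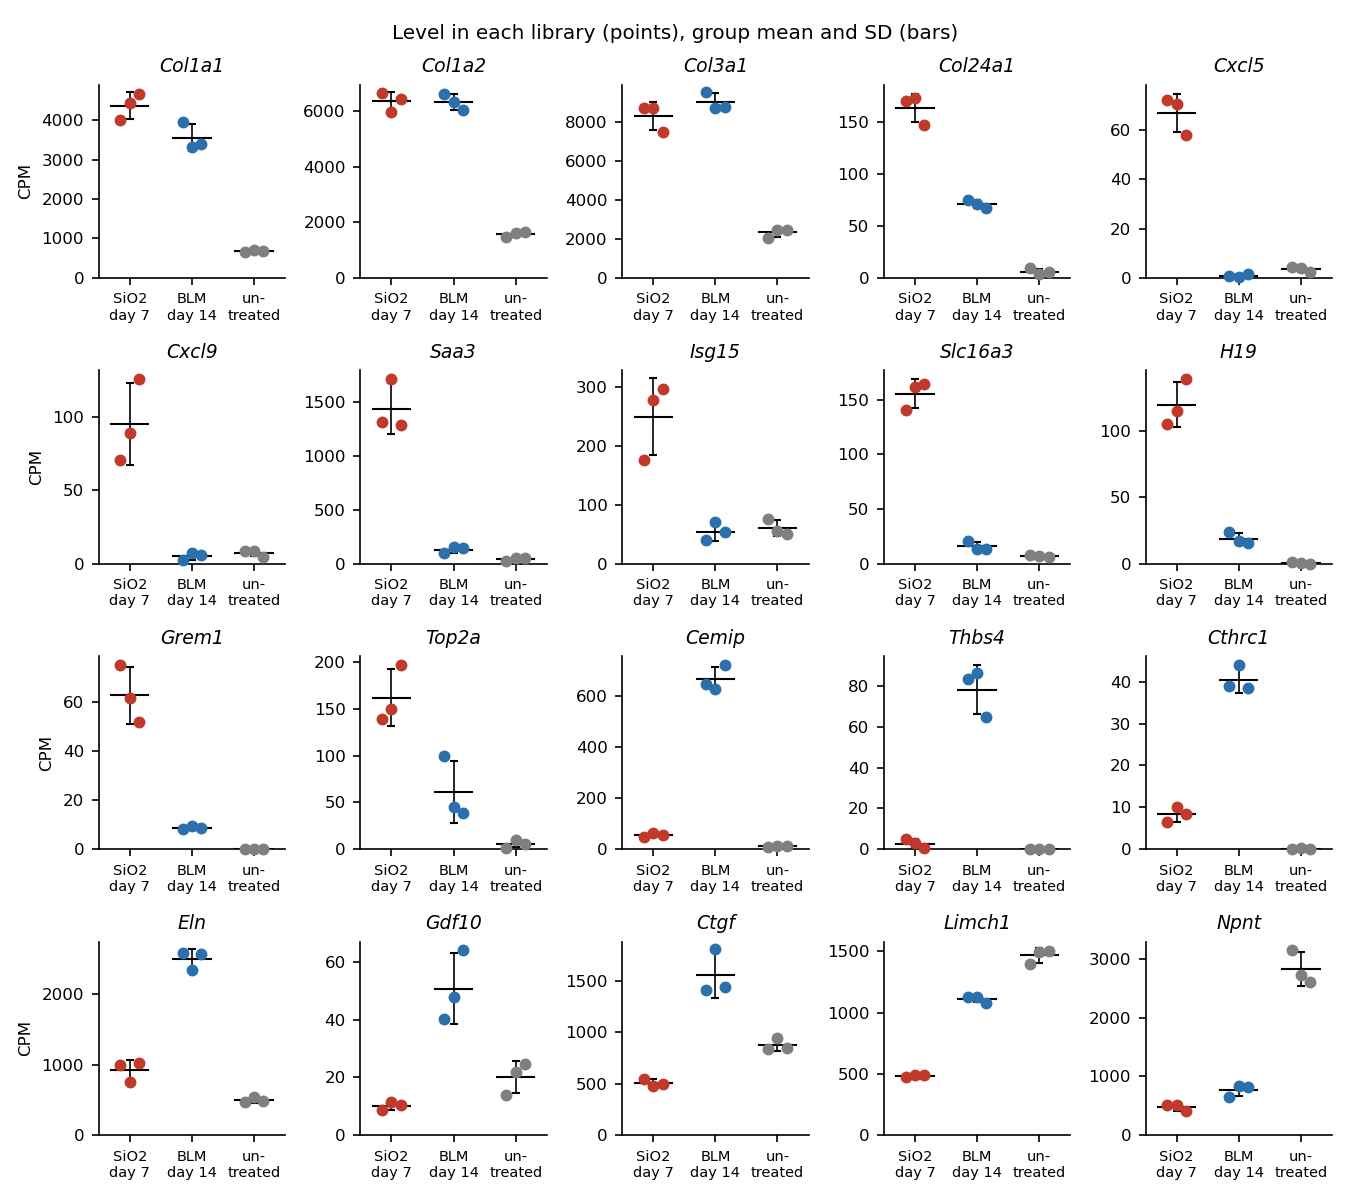
Level of 20 genes (CPM, linear axes from 0) in each SiO2 day 7, BLM day 14 and untreated library; points are libraries, bars the group mean and SD (n = 3). Col1a1, Col1a2 and Col3a1 stand at similar levels in the SiO2 day 7 and BLM day 14 libraries and above the untreated ones, while the other genes shown separate SiO2 day 7 from BLM day 14.

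At this matched collagen level, chemokines and inflammatory genes were among the 15 genes highest in SiO2 day 7 by the rule for named genes. Cxcl5 (chr5:90759360-90761624, mm10), a chemokine that attracts neutrophils, had 72.5, 70.7 and 58.2 CPM in SiO2 day 7 and 0.706, 0.299 and 1.38 CPM in BLM day 14, a difference of 6.3 ± 0.31 (adjusted p = 3.03e-15). The lowest SiO2 day 7 library exceeded every BLM day 14 library by far more than the spread within either group, and BLM day 14 lay under the untreated mean of 3.59 ± 1.1 CPM. Cxcl9 (chr5:92321347-92328079), which is induced by interferon-gamma and attracts T cells, had 70.5, 89.3 and 126 CPM in SiO2 day 7 and 2.47, 7.17 and 5.53 CPM in BLM day 14 (4.19 ± 0.36, adjusted p = 5.68e-10). Saa3 (chr7:46711998-46715700), an acute-phase serum amyloid A protein, had 1313, 1711 and 1286 CPM in SiO2 day 7 and 93.9, 154 and 143 CPM in BLM day 14, 11-fold higher by the fit (3.46 ± 0.35, adjusted p = 1.96e-08). All 3 genes separated the groups without overlap, as the rule for these 15 genes required.

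A receptor and a ligand of the tumour necrosis factor family were among them too. Tnfrsf9 (4-1BB, chr4:150914562-150946102), a co-stimulatory receptor, had 29.6, 51.5 and 32.6 CPM in SiO2 day 7 and 0.353, 0.299 and 2.21 CPM in BLM day 14 (5.17 ± 0.47). Tnfsf11 (RANKL, chr14:78277445-78308043), the cytokine that drives osteoclast formation, had 9.03, 12 and 11.1 CPM in SiO2 day 7 and 0.353, 0 and 1.1 CPM in BLM day 14 (4.31 ± 0.61). In BLM day 14 both were within a few counts of 0, so the size of their fitted differences rests on few counts.

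Other leading genes belong to transport and signalling. Slc16a3 (chr11:120948480-120960868), the lactate exporter MCT4, had 140.5, 162 and 165 CPM in SiO2 day 7 and 20.5, 13.8 and 13 CPM in BLM day 14, 10.0-fold higher (3.32 ± 0.17, adjusted p = 4.67e-15). Grem1 (chr2:113746164-113758646), a secreted antagonist of bone morphogenetic proteins, had 74.7, 61.4 and 51.6 CPM in SiO2 day 7 and 8.12, 9.56 and 8.57 CPM in BLM day 14 (2.83 ± 0.28); it was listed at 0 in all 3 untreated libraries. Adamdec1 (chr14:68563380-68582095), a metalloprotease of the ADAM family, had 121, 124 and 65.8 CPM in SiO2 day 7 and 18.4, 14.9 and 9.67 CPM in BLM day 14 (2.87 ± 0.27). In each of these genes the lowest SiO2 day 7 library lay above the highest BLM day 14 library, which the rule required.

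Among the remaining genes of the 15 with the largest difference were Nt5e (CD73, which makes adenosine; 3.1), Nrg1 (neuregulin, a ligand of ErbB receptors; 2.85), Lama1 (a laminin chain; 3.02) and Edil3 (an integrin-binding matrix protein; 2.95). Pla2g7, the secreted phospholipase that breaks down platelet-activating factor, differed by 2.95 and Camp, the antimicrobial cathelicidin, by 2.78. Sftpc (2.89), surfactant protein C of alveolar epithelium, was also among them and is given with the cell type markers.

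The 15 genes lowest in SiO2 day 7 by the same rule included several of the matrix. Col8a1 (chr16:57624258-57754737), a short-chain collagen of vessel walls, had 0.502, 0 and 1.27 CPM in SiO2 day 7 and 15.9, 23.3 and 21 CPM in BLM day 14 (-5.0 ± 0.51, adjusted p = 1.72e-08). Thbs4 (chr13:92751590-92794818), a thrombospondin of tendon and muscle matrix, had 5.02, 2.92 and 0.506 CPM in SiO2 day 7 and 83.7, 86.7 and 64.7 CPM in BLM day 14 (-4.78 ± 0.39, adjusted p = 3.03e-10). Both were close to absent in SiO2 day 7, and the rule required that they do not overlap.

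Cemip (chr7:83932857-84086502), which takes part in the breakdown of hyaluronan, had 47.4, 64.3 and 57 CPM in SiO2 day 7 and 647, 629 and 722 CPM in BLM day 14, 11.9-fold higher in BLM day 14 (-3.57 ± 0.25, adjusted p = 1.12e-11). Col28a1 (chr6:7997808-8192617), a beaded-filament collagen, had 5.27, 4.52 and 5.32 CPM in SiO2 day 7 and 48, 37 and 54.7 CPM in BLM day 14 (-3.2 ± 0.30). Cthrc1 (chr15:39076932-39087121), which is named in any case, a secreted protein that marks the most collagen-rich fibroblasts of fibrotic lungs, had 6.52, 10.1 and 8.35 CPM in SiO2 day 7 and 38.9, 43.9 and 38.4 CPM in BLM day 14 (-2.28 ± 0.24, adjusted p = 2.41e-08). Cthrc1 thus differed 4.85-fold between groups matched on Col1a1, and its SiO2 day 7 level was near the BLM day 7 mean of 7.33 ± 3.61 CPM.

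The rest of the 15 were receptors, enzymes and regulators, among them Gfra1 (a receptor of the neurotrophic factor GDNF; -3.15), Kcnn4 (a calcium-activated potassium channel; -2.95), Alox12 (a lipoxygenase; -2.89) and Enpp1 (which makes pyrophosphate; -2.46). Daam2, a formin of Wnt signalling, differed by -2.56, the transcription factor Tfap2a by -2.51 and the secreted Wnt antagonist Frzb by -2.39. C1qtnf3 (-2.96), Fam189a1 (-2.83), Mtus2 (-2.69) and Wscd2 (-2.58) completed the list.

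**Figure D2:**
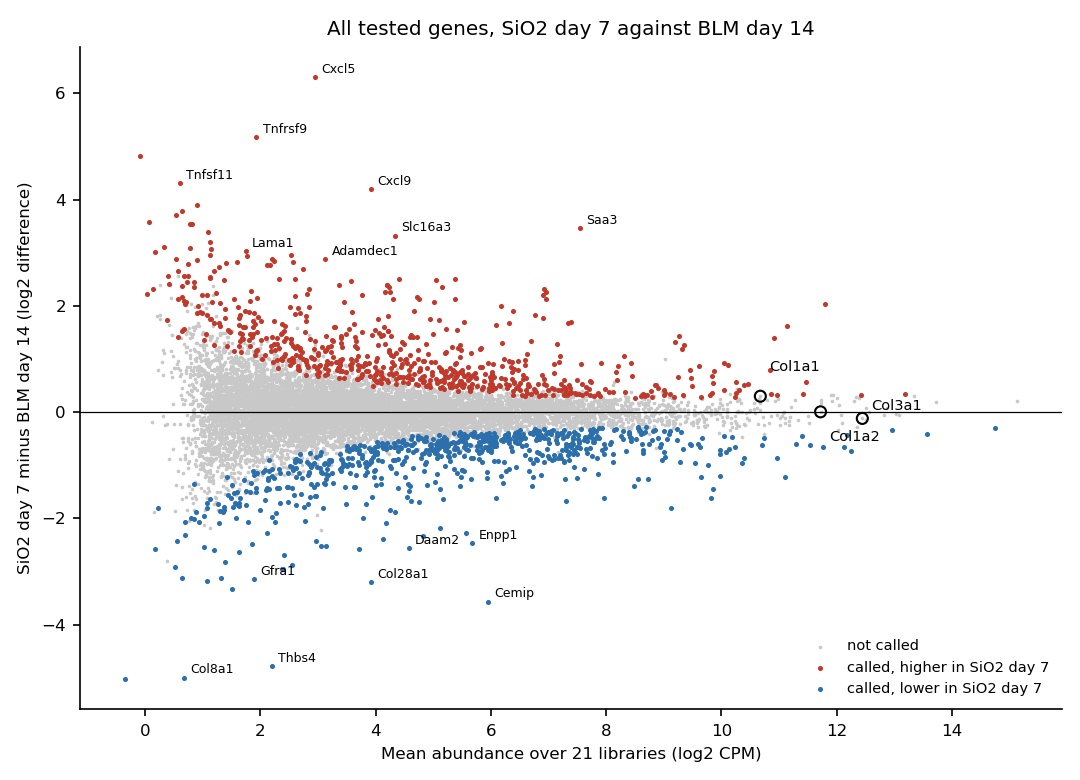
Difference of SiO2 day 7 minus BLM day 14 (log2) against mean abundance (log2 CPM over 21 libraries) for 11669 genes; red points were called higher and blue points lower, and circles mark Col1a1, Col1a2 and Col3a1. The fibrillar collagens lie near 0, and Cxcl5 and Tnfrsf9 stand at the top and Col8a1 and Thbs4 at the bottom among the labelled genes.

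Interferon-response genes were higher in SiO2 day 7 with few exceptions. These genes are switched on after interferon binds its receptor, and many of their products block viruses. Of 31 tested, 29 were called higher in SiO2 day 7 and 2 lower, against 5.67% and 5.96% of all tested genes, and the median difference was 1.69. Summed over the list, the SiO2 day 7 libraries held 2469, 3420 and 3169 CPM and the BLM day 14 libraries 995.9, 1360 and 1229 CPM, against 2044, 1807 and 1759 CPM in untreated mice. SiO2 day 7 thus lay above the untreated libraries and BLM day 14 below them, and SiO2 day 7 replicate 1 was the lowest of its group.

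Isg15, a ubiquitin-like modifier, had 175, 277 and 295 CPM in SiO2 day 7 and 39.2, 69.6 and 53.6 CPM in BLM day 14 (2.19 ± 0.27, adjusted p = 5.23e-07). Gbp3, a guanylate-binding GTPase, had 128, 217 and 191 CPM in SiO2 day 7 and 29.7, 42.1 and 35.1 CPM in BLM day 14 (2.32 ± 0.24, adjusted p = 2.41e-08). Bst2 (tetherin, which holds budding viruses at the membrane) had 40.6, 53.7 and 58.2 CPM in SiO2 day 7 and 8.83, 14.3 and 10.5 CPM in BLM day 14 (2.17 ± 0.26). None of these 3 genes overlapped between the groups. Zbp1, a sensor of nucleic acids, differed by 2.12 ± 0.26.

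Ifi27 and Irf1 were the 2 members called lower and are named after their values were seen. Irf1 had 115, 130.4 and 137 CPM in SiO2 day 7 and 162, 161 and 250.1 CPM in BLM day 14 (-0.59 ± 0.17, adjusted p = 0.0235). Both lower calls were lost without BLM day 14 replicate 3, and 1 of them without each of SiO2 day 7 replicates 1, 2 and 3 or BLM day 14 replicate 2. The higher calls numbered 26 to 29 with any single library left out.

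The promoters of 3 of these genes are shown because they carry the interferon-stimulated response element, a motif through which interferon switches genes on. Each sequence is the 250 bases before the gene start (RefSeq, GRCm38.p6), read in the direction of the gene, and capitals mark the core of the element, GAAA and GAAA with 2 bases of any kind between them, on either strand (TTTC and TTTC on the other), overlapping matches joined.
Isg15 (chr4:156200819-156201068, minus strand): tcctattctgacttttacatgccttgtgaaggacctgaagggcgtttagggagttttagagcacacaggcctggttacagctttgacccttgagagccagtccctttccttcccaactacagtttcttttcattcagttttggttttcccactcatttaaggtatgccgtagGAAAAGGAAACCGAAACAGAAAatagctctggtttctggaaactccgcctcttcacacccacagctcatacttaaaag
Gbp3 (chr3:142559794-142560043, plus strand): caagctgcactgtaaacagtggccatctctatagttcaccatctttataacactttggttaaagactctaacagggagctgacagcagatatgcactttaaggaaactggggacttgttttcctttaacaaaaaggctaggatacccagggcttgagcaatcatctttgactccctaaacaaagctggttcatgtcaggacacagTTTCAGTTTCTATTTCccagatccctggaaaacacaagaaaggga
Bst2 (chr8:71537473-71537722, minus strand): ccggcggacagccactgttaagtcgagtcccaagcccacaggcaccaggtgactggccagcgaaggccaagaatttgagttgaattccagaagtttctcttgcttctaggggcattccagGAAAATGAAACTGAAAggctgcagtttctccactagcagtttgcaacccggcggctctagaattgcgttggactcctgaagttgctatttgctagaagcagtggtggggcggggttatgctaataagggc
The core was present in 13 of the 22 interferon-response genes that matched a RefSeq promoter (59.1%), against 3.04% of all 27025 promoters and 2.73% of the 8398 promoters of tested genes. It was present in 2 of 15 matched genes of the MHC class I list (13.3%) and in 3 of 22 of the chemokine list (13.6%). A match is a description of the letters and does not show binding.

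Genes of MHC class I presentation, which show peptides from inside the cell to T cells, were called in the same direction where they passed. Of 17 tested, 13 were called higher and none lower, with a median of 0.92, and the list summed to 1486, 1512 and 1735 CPM in SiO2 day 7 and 675.6, 779.3 and 764.9 CPM in BLM day 14, against 1291, 1141 and 1108 CPM in untreated mice. Psmb8, a subunit of the immunoproteasome that cuts peptides, had 837, 922 and 1019 CPM in SiO2 day 7 and 359, 408 and 389 CPM in BLM day 14 (1.27 ± 0.12, adjusted p = 6.44e-09). B2m, the light chain of class I molecules, had 160, 154 and 181 CPM in SiO2 day 7 and 75.6, 86.4 and 94.8 CPM in BLM day 14 (0.94 ± 0.12), and Tap1, the peptide transporter, differed by 1.32 ± 0.19. H2-Q7 (2.4 ± 0.36) has near-identical neighbours among the class I genes, so its counts may include theirs.

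Of 30 tested chemokines and cytokines, 15 were called higher in SiO2 day 7 and 3 lower (median 0.77). Ccl2, which attracts monocytes, had 42.9, 48.4 and 63 CPM in SiO2 day 7 and 31.8, 26.3 and 29.3 CPM in BLM day 14 (0.82 ± 0.18, adjusted p = 0.00226). Mif, a macrophage cytokine, had 64.5, 60.3 and 85.8 CPM in SiO2 day 7 and 27.6, 24.5 and 24.3 CPM in BLM day 14 (1.47 ± 0.16). Cxcl12, the chemokine that holds leukocytes and stem cells in tissue, had 128, 144 and 170.1 CPM in SiO2 day 7 and 161, 135 and 143 CPM in BLM day 14 and did not pass the test (0.01 ± 0.14, adjusted p = 0.973). The 3 lower members were Cx3cl1, Csf2 and Cxcl14, named after their values were seen, so the list did not move in a single direction.

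Of 32 tested acute-phase and NF-kB response genes, 15 were called higher and none lower (median 0.43). Hp, haptoglobin, had 802, 987 and 867 CPM in SiO2 day 7 and 301, 276 and 251 CPM in BLM day 14 (1.68 ± 0.15, adjusted p = 2.34e-09). Lcn2, which binds bacterial siderophores, had 155, 138 and 108 CPM in SiO2 day 7 and 27.9, 23.9 and 20.4 CPM in BLM day 14 (2.48 ± 0.23). Both were above their untreated means of 11.6 ± 0.561 and 9.04 ± 2.48 CPM in each of these groups. Ptges, the enzyme that makes prostaglandin E2, differed by 0.87 ± 0.12. Sod2, the mitochondrial superoxide dismutase that NF-kB induces and that was listed with the NRF2 genes, differed by 1.39 ± 0.13, with 3919, 4216 and 4682 CPM in SiO2 day 7 and 1549, 1897 and 1440 CPM in BLM day 14. The NF-kB motif was found in 4 of 24 matched promoters of this list (16.7%) and in 6 of 22 of the chemokine list (27.3%), against 3.75% of all promoters and 4.51% of those of tested genes.

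Complement genes split. Of 16 tested, 5 were called higher and 4 lower; Cfb, factor B of the alternative pathway, had 89, 112 and 103 CPM in SiO2 day 7 and 29, 32.6 and 31.8 CPM in BLM day 14 (1.7 ± 0.16, adjusted p = 4.85e-09). Cfi, factor I, which inactivates C3b, had 14.6, 12.8 and 5.06 CPM in SiO2 day 7 and 30.7, 31.4 and 34.5 CPM in BLM day 14 (-1.58 ± 0.33). The list sum overlapped, at 8831, 8270 and 8556 CPM in SiO2 day 7 and 7799, 8910 and 8709 CPM in BLM day 14. The higher count was 3 without SiO2 day 7 replicate 2 or BLM day 14 replicate 1 or 2, and 2 without BLM day 14 replicate 3.

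Some genes of cell division were higher in SiO2 day 7, and most did not pass the test. Of 35 tested genes of mitosis and the spindle, 12 were called higher and none lower, with a median of 0.83, and 7 of 25 genes of DNA replication were called higher and none lower (median 0.67). Top2a, the topoisomerase that untangles chromosomes, had 139, 150.1 and 196 CPM in SiO2 day 7 and 99.6, 45.4 and 39 CPM in BLM day 14 (1.42 ± 0.27, adjusted p = 0.000328). The groups did not overlap, and replicate 1 of BLM day 14 lay nearer to the lowest SiO2 day 7 library than to the other 2 of its group. Mki67, the common proliferation marker, had 16.6, 18.9 and 18.5 CPM in SiO2 day 7 and 18.4, 9.86 and 7.74 CPM in BLM day 14, overlapped, and did not pass the test (0.61 ± 0.29, adjusted p = 0.19); without BLM day 14 replicate 1 it passed by edgeR (1.03, adjusted p = 0.0296). Nusap1, a spindle protein, differed by 1.27 ± 0.19, the condensin subunits Ncapd2 and Ncapg by 0.98 ± 0.14 and 1.0 ± 0.21, and Tk1, thymidine kinase, by 1.29 ± 0.22.

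Summed over the mitosis list, the libraries held 743.7, 863.4 and 1030 CPM in SiO2 day 7 and 633.9, 389.4 and 359.5 CPM in BLM day 14, against 132.9, 152.5 and 145.6 CPM in untreated mice, so each of the 6 libraries lay above the untreated ones. By edgeR, without BLM day 14 replicate 1, 18 genes of the mitosis list were called higher. The count was 7 without SiO2 day 7 replicate 2, 5 without SiO2 day 7 replicate 3, 6 without BLM day 14 replicate 2, 5 without BLM day 14 replicate 3, and 7 by DESeq2. For DNA replication it was 4 by DESeq2 and without SiO2 day 7 replicate 1 or BLM day 14 replicate 3.

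The Top2a promoter is shown because it carries the cell cycle genes homology region, the motif through which a repressor complex silences division genes in resting cells; capitals mark TTTGAA on either strand (250 bases before the gene start, RefSeq, GRCm38.p6).
Top2a (chr11:99024190-99024439, minus strand): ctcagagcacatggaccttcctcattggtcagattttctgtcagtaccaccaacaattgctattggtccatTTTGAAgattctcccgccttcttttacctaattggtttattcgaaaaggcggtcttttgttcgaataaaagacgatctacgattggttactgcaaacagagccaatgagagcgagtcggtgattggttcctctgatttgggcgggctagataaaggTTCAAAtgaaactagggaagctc
This motif was present in 10 of 29 matched promoters of the mitosis list (34.5%), against 16.3% of all promoters and 10.3% of those of tested genes.

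The glycolysis and hypoxia list holds glycolytic enzymes, glucose and lactate transporters and hypoxia genes. Of 26 tested, 14 were called higher in SiO2 day 7 and none lower (median 0.61), and the list summed to 4780, 4939 and 5505 CPM in SiO2 day 7 and 3538, 3514 and 3325 CPM in BLM day 14, against 3661, 3803 and 3136 CPM in untreated mice. All 3 SiO2 day 7 libraries lay above the untreated ones, and the BLM day 14 libraries lay among them. Slc16a1, the lactate transporter MCT1, had 298, 346 and 387 CPM in SiO2 day 7 and 85.1, 99.5 and 105 CPM in BLM day 14 (1.83 ± 0.15, adjusted p = 2.38e-10). Hif1a, the transcription factor of the hypoxia response, had 327, 365 and 419 CPM in SiO2 day 7 and 167, 190 and 177 CPM in BLM day 14 (1.05 ± 0.14). Slc2a1, the glucose transporter GLUT1, differed by 0.61 ± 0.10. Of 35 tested subunits of oxidative phosphorylation none was called in either direction by edgeR, by DESeq2 or by limma-voom, with 0 at an unadjusted p under 0.05 by edgeR and a median of 0.03.

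Of 29 tested genes of cholesterol and fatty acid synthesis, 9 were called higher and none lower (median 0.51). Elovl6, a fatty acid elongase, had 31.6, 42.2 and 22.8 CPM in SiO2 day 7 and 8.83, 14 and 12.7 CPM in BLM day 14 (1.42 ± 0.23, adjusted p = 5.77e-05). The desaturases Scd1 and Scd2 differed by 0.69 ± 0.18 and 0.65 ± 0.15. Without SiO2 day 7 replicate 1 or BLM day 14 replicate 3 the count was 3, and without BLM day 14 replicate 1 it was 4, so the count rested on more than 1 library; the Scd1 call was lost without BLM day 14 replicate 3 (0.49, adjusted p = 0.115 by edgeR). Of 15 tested LXR targets and genes of sterol export 4 were called higher and 3 lower, the 3 lower calls were lost without SiO2 day 7 replicate 2 or 3 or BLM day 14 replicate 2 or 3, and 1 was left by DESeq2. Abca1, the cholesterol exporter, had 106, 100.4 and 92.1 CPM in SiO2 day 7 and 59.3, 49 and 50.6 CPM in BLM day 14 (0.91 ± 0.14), and Pltp, the phospholipid transfer protein, differed by 1.19 ± 0.21.

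Of 42 tested cytosolic ribosomal proteins, 6 were called higher, all by under 0.40, among them Rpl15 (0.34 ± 0.08) and Rpl5 (0.35 ± 0.09). The count was 2 without SiO2 day 7 replicate 3 or BLM day 14 replicate 2 or 3, and these genes share sequence with processed pseudogenes. No gene of 26 tested for ribosome biogenesis was called by edgeR, DESeq2 or limma-voom, with 5 at an unadjusted p under 0.05 by edgeR. Slc7a11, the cystine importer, had 4.01, 2.92 and 19.7 CPM in SiO2 day 7 and 4.94, 1.49 and 1.66 CPM in BLM day 14, with overlap. Its call (1.78 ± 0.56, adjusted p = 0.0357) rested on SiO2 day 7 replicate 3: without it the difference was 0.42 (adjusted p = 0.75 by edgeR), and it was also lost without BLM day 14 replicate 2 or 3.

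Genes that process and cross-link collagen did not all sit at the matched level. Of 26 tested, 7 were called higher and 2 lower in SiO2 day 7. Bmp1, the protease that trims the C-terminal propeptide of collagen, had 70.0, 65.4 and 91.6 CPM in SiO2 day 7 and 37.4, 47.8 and 46.1 CPM in BLM day 14 (0.78 ± 0.17, adjusted p = 0.0017). P4ha1, a prolyl hydroxylase, differed by 0.69 ± 0.12 and Loxl2, a cross-linking oxidase, by 0.61 ± 0.13. Loxl1, the oxidase that cross-links elastin, lay the other way, at 154, 121 and 102 CPM in SiO2 day 7 and 172, 216 and 204 CPM in BLM day 14 (-0.65 ± 0.13). The higher count was 4 without SiO2 day 7 replicate 2 or BLM day 14 replicate 2 and 3 without BLM day 14 replicate 3, and the lower count was 1 without replicate 2 of either group.

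Elastin and fibronectin, the proteins of elastic and adhesive matrix, were lower in SiO2 day 7. Eln, elastin (chr5:134702593-134747323), had 987, 746 and 1016 CPM in SiO2 day 7 and 2577, 2340 and 2573 CPM in BLM day 14 (-1.45 ± 0.16, adjusted p = 9.48e-08). Fn1, fibronectin, had 1118, 879.6 and 1150 CPM in SiO2 day 7 and 2234, 1920 and 1889 CPM in BLM day 14 (-0.94 ± 0.15, adjusted p = 5.07e-05). Neither overlapped between the groups, and both were above their untreated means of 499.6 ± 39.1 and 259.8 ± 21.2 CPM. Other matrix genes used as markers of fibrosis did not pass the test: Tnc (tenascin C) differed by -0.28 ± 0.17 (adjusted p = 0.339), Postn (periostin) by -0.61 ± 0.22 (adjusted p = 0.0714) and Spp1 (osteopontin) by -0.81 ± 0.29 (adjusted p = 0.0649). Spp1 had 1040, 776 and 1755 CPM in SiO2 day 7 and 2824, 1718 and 1716 CPM in BLM day 14, a wide and overlapping spread. Postn passed without SiO2 day 7 replicate 1 (-0.89, adjusted p = 0.0126 by edgeR) and Spp1 without SiO2 day 7 replicate 3 (-1.20, adjusted p = 0.00866 by edgeR). Both also passed with no filter on low counts and with the 6 libraries fitted alone, and Spp1 by limma-voom. Of 34 tested matrix glycoproteins in all, 5 were called higher and 7 lower; the higher count was 3 without SiO2 day 7 replicate 1 or 2 or BLM day 14 replicate 1 or 3.

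Several small leucine-rich proteoglycans, which coat collagen fibrils and space them, were lower in SiO2 day 7. Of 22 tested proteoglycans and hyaluronan genes, 8 were called lower and 3 higher, or 6 higher with no filter on low counts. The list sum overlapped, at 14770, 12990 and 10620 CPM in SiO2 day 7 and 10380, 14250 and 14340 CPM in BLM day 14. Fmod, fibromodulin, had 56.9, 31.4 and 28.6 CPM in SiO2 day 7 and 108, 126 and 132 CPM in BLM day 14 (-1.65 ± 0.19, adjusted p = 2.54e-07). Prelp had 177, 181 and 152 CPM in SiO2 day 7 and 351, 447 and 421 CPM in BLM day 14 (-1.26 ± 0.10, adjusted p = 3.52e-10), and lumican (Lum) and podocan (Podn) differed by -1.12 ± 0.21 and -0.96 ± 0.11. Vcan, versican, a large proteoglycan of provisional matrix, was higher, at 43.4, 60.0 and 48.4 CPM in SiO2 day 7 and 26.5, 19.4 and 21.6 CPM in BLM day 14 (1.18 ± 0.16).

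Of 16 tested basement membrane genes, 7 were called lower and 3 higher. Col4a2, a chain of the type IV collagen sheet, had 4584, 3836 and 4556 CPM in SiO2 day 7 and 6832, 6883 and 6759 CPM in BLM day 14 (-0.66 ± 0.10, adjusted p = 1.7e-05), and Lama2, the laminin chain of muscle and mesenchyme, differed by -0.88 ± 0.11. Nid2, nidogen 2, was higher, at 56.9, 78.1 and 128 CPM in SiO2 day 7 and 41.7, 26.9 and 28.5 CPM in BLM day 14 (1.45 ± 0.22), and Lama1 (3.02 ± 0.41) was listed at 0 in all 3 untreated libraries. Laminin chains thus lay in opposite directions. The lower count was 4 without SiO2 day 7 replicate 3 or BLM day 14 replicate 3.

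Of 28 tested matrix proteases and inhibitors, 3 were called higher and 7 lower, against 5.67% and 5.96% of all tested genes. Timp1, an inhibitor of metalloproteases, did not pass the test, with 142, 160.5 and 164 CPM in SiO2 day 7 and 143, 145 and 128 CPM in BLM day 14 (0.17 ± 0.13, adjusted p = 0.495). Timp2 was lower, at 641, 639.5 and 648 CPM in SiO2 day 7 and 1017, 902 and 1004 CPM in BLM day 14 (-0.60 ± 0.08, adjusted p = 5.8e-06). Adamts15, a protease that cuts versican, differed by -1.07 ± 0.11 and the serpin Serpine2 by -0.87 ± 0.12.

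Genes of the transforming growth factor family were called lower in SiO2 day 7 more often than higher. Of 39 tested genes of TGF-beta, BMP and activin signalling, 12 were called lower and 3 higher (median -0.34). The list sum overlapped, at 14230, 12470 and 12000 CPM in SiO2 day 7 and 13270, 15070 and 15410 CPM in BLM day 14. Ctgf, connective tissue growth factor, a target of TGF-beta and of the mechanosensitive YAP pathway, had 548, 478 and 502 CPM in SiO2 day 7 and 1415, 1817 and 1439 CPM in BLM day 14 (-1.61 ± 0.14, adjusted p = 1.53e-09). Gdf10, a BMP-like ligand, had 8.53, 11.4 and 10.4 CPM in SiO2 day 7 and 40.3, 47.8 and 64.4 CPM in BLM day 14 (-2.34 ± 0.20, adjusted p = 8.97e-10). In both genes SiO2 day 7 lay under the untreated means of 877 ± 57.3 and 20.2 ± 5.6 CPM and BLM day 14 above them. The BMP antagonist Grem1, given above, was among the 3 higher members.

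Of 33 tested Wnt genes, 3 were called higher and 8 lower. Rspo3 (chr10:29452416-29535867), a secreted amplifier of Wnt signals, had 85, 128 and 161 CPM in SiO2 day 7 and 33.9, 27.2 and 25.4 CPM in BLM day 14 (2.12 ± 0.22, adjusted p = 1.96e-08). Sp5, a transcription factor switched on by Wnt, was low but did not overlap, at 4.01, 6.38 and 4.56 CPM in SiO2 day 7 and 0.353, 0.896 and 1.1 CPM in BLM day 14 (2.56 ± 0.49). The antagonist Frzb lay the other way, at 13.5, 17.8 and 19 CPM in SiO2 day 7 and 61.5, 108 and 93.4 CPM in BLM day 14, and the receptor Fzd8 differed by -1.4 ± 0.25. The lower count was 5 without SiO2 day 7 replicate 3 or BLM day 14 replicate 2.

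Of 32 tested growth and neurotrophic factors, 5 were called higher (8 with no filter on low counts) and 10 lower. H19 (chr7:142575529-142578143), an imprinted long non-coding RNA of growing tissue, had 106, 115 and 139 CPM in SiO2 day 7 and 23.7, 17.3 and 15.2 CPM in BLM day 14, against 0.343 ± 0.397 CPM in untreated mice (2.69 ± 0.24, adjusted p = 1.53e-09). Igfbp3, a binding protein of insulin-like growth factors, had 158, 126 and 91.6 CPM in SiO2 day 7 and 34.6, 32 and 34.3 CPM in BLM day 14 (1.9 ± 0.20). Gdnf, a neurotrophic factor, was lower, at 33.1, 25.8 and 26.3 CPM in SiO2 day 7 and 71.7, 78 and 79.9 CPM in BLM day 14 (-1.43 ± 0.21, adjusted p = 8.67e-06). Its receptor Gfra1, named above, was lower as well. Figf (VEGF-D), a factor of lymphatic vessels, differed by -1.23 ± 0.12.

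Summed over the list, genes of the resting alveolar fibroblast were below the untreated level in both groups and lower still in SiO2 day 7. The list of 33 tested genes summed to 7458, 6824 and 6452 CPM in SiO2 day 7 and 9485, 10420 and 9773 CPM in BLM day 14, against 21690, 20430 and 19330 CPM in untreated mice; 9 members were called lower and 3 higher in SiO2 day 7. Limch1, an actin regulator, had 475, 486 and 491 CPM in SiO2 day 7 and 1129, 1126 and 1080 CPM in BLM day 14, with an untreated mean of 1466 ± 59.5 CPM (-1.2 ± 0.09, adjusted p = 5.87e-11). Npnt, nephronectin, had 511, 517 and 406 CPM in SiO2 day 7 and 651, 836 and 819.9 CPM in BLM day 14, with an untreated mean of 2829 ± 289 CPM (-0.69 ± 0.14, adjusted p = 0.000584). Tcf21, the transcription factor of these cells, differed by -0.25 ± 0.15 and Inmt, a methyltransferase, by -0.37 ± 0.24, and neither passed the test (adjusted p = 0.327 for Tcf21 and 0.388 for Inmt), although Inmt passed with no filter on low counts (adjusted p = 0.0222). Cyp1b1 (2.26 ± 0.23) and Enpp2, which makes lysophosphatidic acid (1.99 ± 0.18), went against the list.

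Of 20 tested genes of lipid storage and retinoid metabolism, 7 were called lower and 1 higher. Of 27 adventitial fibroblast genes 5 were called lower and 1 higher, against 5.96% and 5.67% of all tested genes. Lpl, lipoprotein lipase, had 386, 383 and 345 CPM in SiO2 day 7 and 936, 1020 and 984 CPM in BLM day 14, with an untreated mean of 82.3 ± 14.7 CPM (-1.4 ± 0.19, adjusted p = 2.15e-06). Zbtb16, a zinc finger protein induced by glucocorticoids, had 19.3, 10.6 and 16.7 CPM in SiO2 day 7 and 139.5, 51.1 and 25.1 CPM in BLM day 14, a wide spread within BLM day 14 but no overlap (-2.18 ± 0.43, adjusted p = 0.000549). Dpt, dermatopontin, and Cd34, both of adventitial fibroblasts, differed by -0.87 ± 0.12 and -0.74 ± 0.14. The lower count of the lipid list was 4 without replicate 2 of either group and 3 without SiO2 day 7 replicate 3; the single higher adventitial call was lost without SiO2 day 7 replicate 2 or 3 or BLM day 14 replicate 1 or 2.

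Contractile genes gave no common direction. Acta2, the smooth muscle actin of myofibroblasts, had 99.6, 93.8 and 79 CPM in SiO2 day 7 and 88.3, 63.6 and 68.8 CPM in BLM day 14 and did not pass the test (0.31 ± 0.19, adjusted p = 0.349). Tagln, transgelin, was lower, at 72.2, 28.7 and 36 CPM in SiO2 day 7 and 107, 92.6 and 92 CPM in BLM day 14 (-1.09 ± 0.23, adjusted p = 0.00103), and so was the non-muscle myosin Myh10 (-0.71 ± 0.09). Of 25 tested contractile and actin genes, 2 were called higher and 3 lower, against 5.67% and 5.96% of all tested genes. No higher call was left without SiO2 day 7 replicate 1 or BLM day 14 replicate 3. Of 37 tested genes listed as activated fibroblast and fibrosis-associated, 4 were called higher and 10 lower. The name does not describe their level against untreated mice: the list summed to 13050, 11430 and 11010 CPM in SiO2 day 7 and 15810, 16210 and 16130 CPM in BLM day 14, against 12900, 12760 and 11390 CPM in untreated mice. Ptgis, prostacyclin synthase, had 1193, 932 and 975 CPM in SiO2 day 7 and 2178, 2580 and 2503 CPM in BLM day 14, with a mean above both, 3458 ± 275 CPM, in untreated mice (-1.23 ± 0.10, adjusted p = 5.65e-10).

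Among transcription factors of mesenchyme and skeleton, Prrx1, a marker of matrix-producing fibroblasts, was higher, at 133, 128 and 131 CPM in SiO2 day 7 and 78, 84.3 and 92.6 CPM in BLM day 14 (0.62 ± 0.12, adjusted p = 0.000441). Scx, scleraxis, the factor of tendon cells, was lower, at 0.502, 0.531 and 1.01 CPM in SiO2 day 7 and 5.3, 6.28 and 4.7 CPM in BLM day 14 (-2.93 ± 0.59, adjusted p = 0.000716). Of 10 tested Notch genes 1 was called, against 11.6% of all tested genes. This was Lfng, which adds sugars to Notch receptors and was lower (-1.76 ± 0.33).

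Immediate-early genes, which also answer the handling of cells, were called in a single direction. Of 29 tested, 10 were called lower in SiO2 day 7 and none higher (median -0.27). Atf3 had 24.1, 41.2 and 34.2 CPM in SiO2 day 7 and 65, 66.3 and 71.8 CPM in BLM day 14 (-1.03 ± 0.20, adjusted p = 0.00035), and Klf4 and Egr3 differed by -0.76 ± 0.14 and -0.95 ± 0.18. Of 17 tested heat shock genes 3 were called higher and 1 lower; of these Hspa1a and Hspa1b were higher (0.88 ± 0.23 and 0.92 ± 0.24), they are near-identical copies, and both values rested on SiO2 day 7 replicate 2, at 925, 1919 and 1060 CPM for Hspa1a in SiO2 day 7 and 588, 663 and 868 CPM in BLM day 14. Without SiO2 day 7 replicate 2 no heat shock gene was called higher. Without BLM day 14 replicate 1 the count was 1, but this was another gene. Hspa1a, Hspa1b and Hsph1, the 3 called higher with all libraries, were lost there (adjusted p = 0.0508, 0.0521 and 0.0719 by edgeR).

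**Figure D3:**
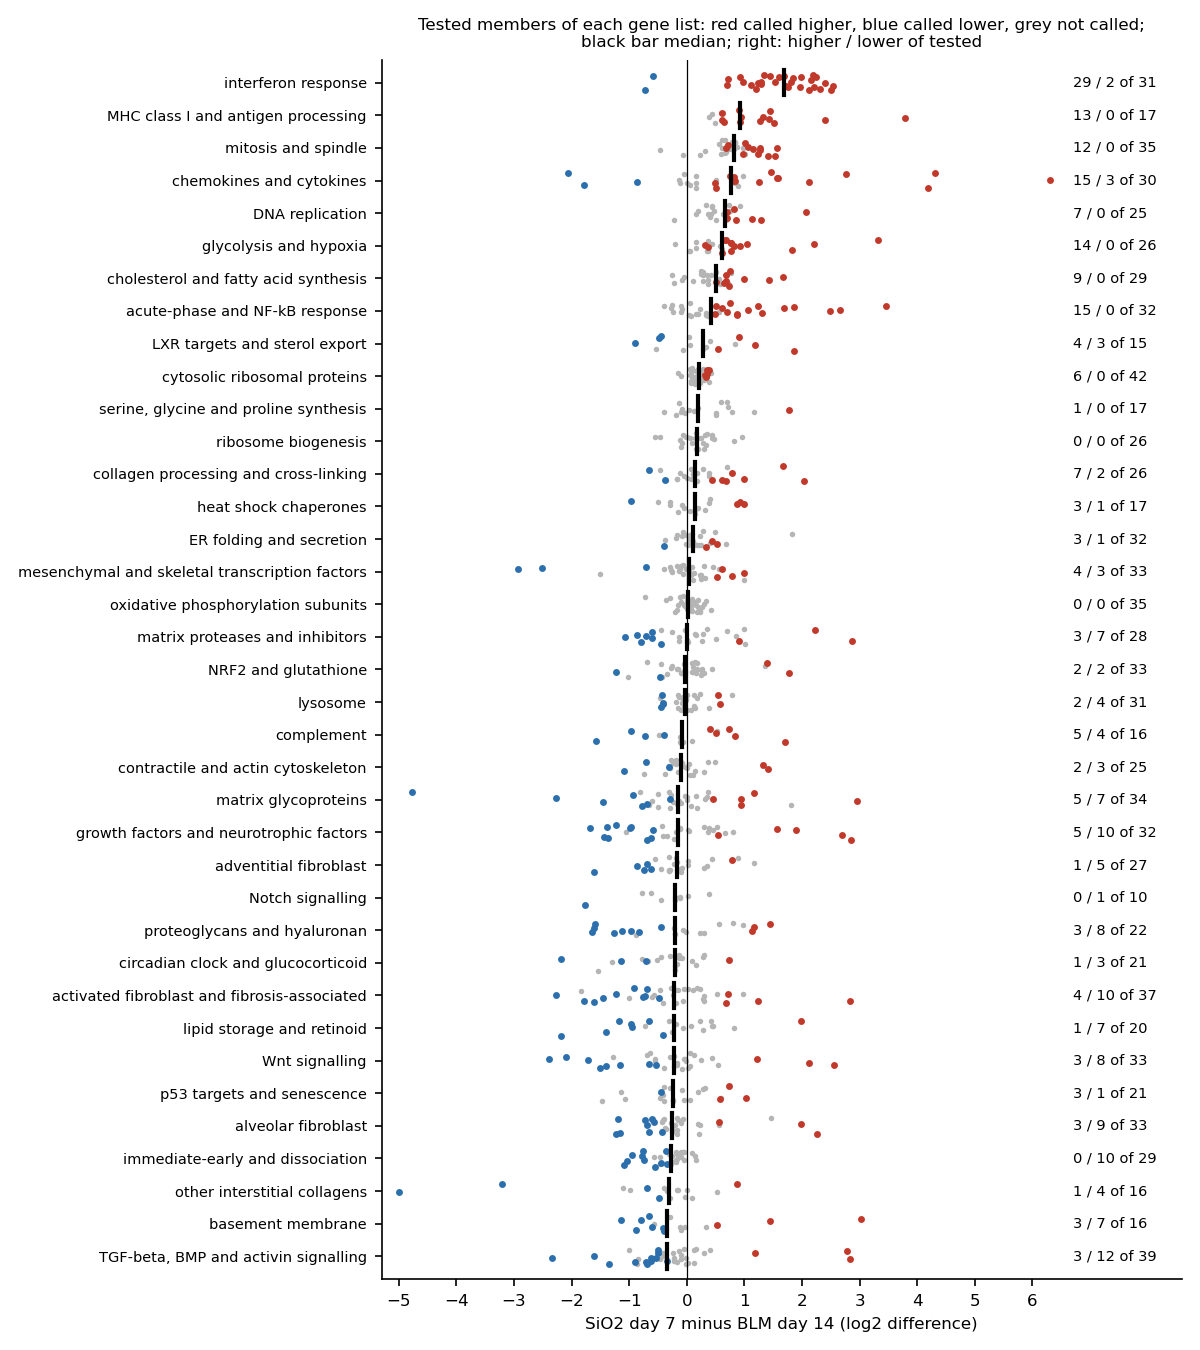
Difference of SiO2 day 7 minus BLM day 14 (log2) for each tested member of 37 gene lists, ordered by their median (black bar); red members were called higher, blue lower, grey not called, and the counts stand on the right. The interferon-response list lies to the right with 29 of 31 called higher, and the TGF-beta, BMP and activin list lies lowest with 12 of 39 called lower.

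Markers of other cell types were not equal between the groups. Of 6 tested epithelial genes, 3 were called higher in SiO2 day 7 (5 with no filter on low counts): Sftpc had 12.8, 13.6 and 8.35 CPM in SiO2 day 7 and 1.41, 1.79 and 1.38 CPM in BLM day 14, Sftpb (surfactant protein B) differed by 1.82 ± 0.33 and Cldn18 (a tight junction protein) by 0.92 ± 0.28. The Cldn18 call was lost without SiO2 day 7 replicate 1 or 2 or any of the BLM day 14 libraries (adjusted p = 0.0664 to 0.151 by edgeR). The epithelial list summed to 102.8, 63.5 and 58.22 CPM in SiO2 day 7 and 40.61, 34.06 and 40.62 CPM in BLM day 14, with Epcam at 0 to 2 counts in each library. Of 10 tested mesothelial genes, 3 were called lower (5 with no filter on low counts or with the 6 libraries fitted alone): Upk1b had 123, 104 and 88.3 CPM in SiO2 day 7 and 312, 297 and 354 CPM in BLM day 14 (-1.61 ± 0.12, adjusted p = 5.87e-11), and Msln and Krt7 differed by -1.05 ± 0.26 and -0.90 ± 0.24, the Krt7 call being lost without SiO2 day 7 replicate 3 (adjusted p = 0.0739 by edgeR). The mesothelial list summed to 294.7, 235.7 and 195.7 CPM in SiO2 day 7 and 547.1, 557.3 and 613.7 CPM in BLM day 14, without overlap, against 661.8, 879.4 and 850.7 CPM in untreated mice. Of 6 tested Schwann and neural genes 1 was called, Uchl1, a ubiquitin hydrolase of neurons, which was lower, at 68.2, 81 and 102 CPM in SiO2 day 7 and 347, 240.5 and 184 CPM in BLM day 14 (-1.62 ± 0.20, adjusted p = 8.22e-07). That list summed to 142.2, 147.2 and 189.1 CPM in SiO2 day 7 and 416.7, 305.1 and 235.7 CPM in BLM day 14, without overlap, against 37.04, 44.71 and 46.82 CPM in untreated mice. Uchl1 alone averaged 83.6 of 159.5 CPM in SiO2 day 7 and 257 of 319 CPM in BLM day 14, so the separation of the sums rests on this gene. The part of these cells in the other differences was not tested.

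Ccl5, the chemokine of T cells that interferon also induces, was the lymphocyte gene called higher, at 29.6, 63.5 and 72.1 CPM in SiO2 day 7 and 15.5, 11.3 and 8.29 CPM in BLM day 14 (2.25 ± 0.28), while Cd3e was at 0 counts in all 6 libraries. Of 8 tested myeloid genes only Lyz1, lysozyme, was called (1.72 ± 0.42), and the myeloid list summed to 35.11, 34.01 and 31.39 CPM in SiO2 day 7 and 25.78, 42.13 and 35.09 CPM in BLM day 14. Of 11 tested genes of pericytes and smooth muscle 4 were called higher and none lower, among them the channel genes Kcnj8 (0.80 ± 0.19) and Abcc9 (0.46 ± 0.15); 2 were called by limma-voom and with the 6 libraries fitted alone, and the Abcc9 call was lost without SiO2 day 7 replicate 2 or 3 or BLM day 14 replicate 1 or 2 (adjusted p = 0.0822 to 0.287 by edgeR). The list summed to 709.8, 589 and 518.4 CPM in SiO2 day 7 and 507.5, 451.8 and 480.8 CPM in BLM day 14. Of 7 tested endothelial genes Ecscr was called higher (0.75 ± 0.13) and Plvap and Eng lower (-1.98 ± 0.30 and -0.63 ± 0.16), with Pecam1 at 0 to 1 counts and Cdh5 at 0 in each library. Of the fibroblast markers, Thy1 was higher, at 47.4, 32.1 and 34.2 CPM in SiO2 day 7 and 9.54, 14 and 17.1 CPM in BLM day 14 (1.46 ± 0.25), and Vim, vimentin, lower (-0.42 ± 0.10); the Vim call was lost without BLM day 14 replicate 1 (adjusted p = 0.0666 by edgeR).

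The difference between SiO2 day 7 and BLM day 14 is exactly the mean difference of SiO2 minus BLM over both days, less the mean difference of day 14 minus day 7 over both agents. These parts use the same libraries as the pair itself and are given as values beside it. Some leading genes had the larger part with the agent: Cxcl5 had an agent part of 4.71 ± 0.20 and a day part of -1.59 ± 0.26, Tnfrsf9 4.75 ± 0.38 and -0.42 ± 0.59, Saa3 2.82 ± 0.24 and -0.64 ± 0.23, and Thbs4 -3.69 ± 0.34 and 1.09 ± 0.44. Others had it with the day: H19 had an agent part of 0.22 ± 0.21 and a day part of -2.47 ± 0.19, and Top2a -0.65 ± 0.20 and -2.07 ± 0.20. The small agent part of H19 averages opposite differences, since SiO2 lay above BLM at day 7 and below it at day 14. The Top2a libraries of SiO2 and BLM overlapped at day 7, and at day 14 those of SiO2 lay lower. C1qtnf3 had -0.10 ± 0.38 and 2.87 ± 0.33, and Gdnf 0.14 ± 0.16 and 1.57 ± 0.16. Elastin was shared evenly, with an agent part of -0.72 ± 0.11 and a day part of 0.72 ± 0.11. In Adamdec1 (3.42 ± 0.24 and 0.55 ± 0.27), Igfbp3 (2.44 ± 0.15 and 0.54 ± 0.15) and Hp (1.98 ± 0.11 and 0.30 ± 0.11) the parts had the same sign and the agent part was the larger. These genes thus differed less in this pair than the agents did on average.

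**Figure D4:**
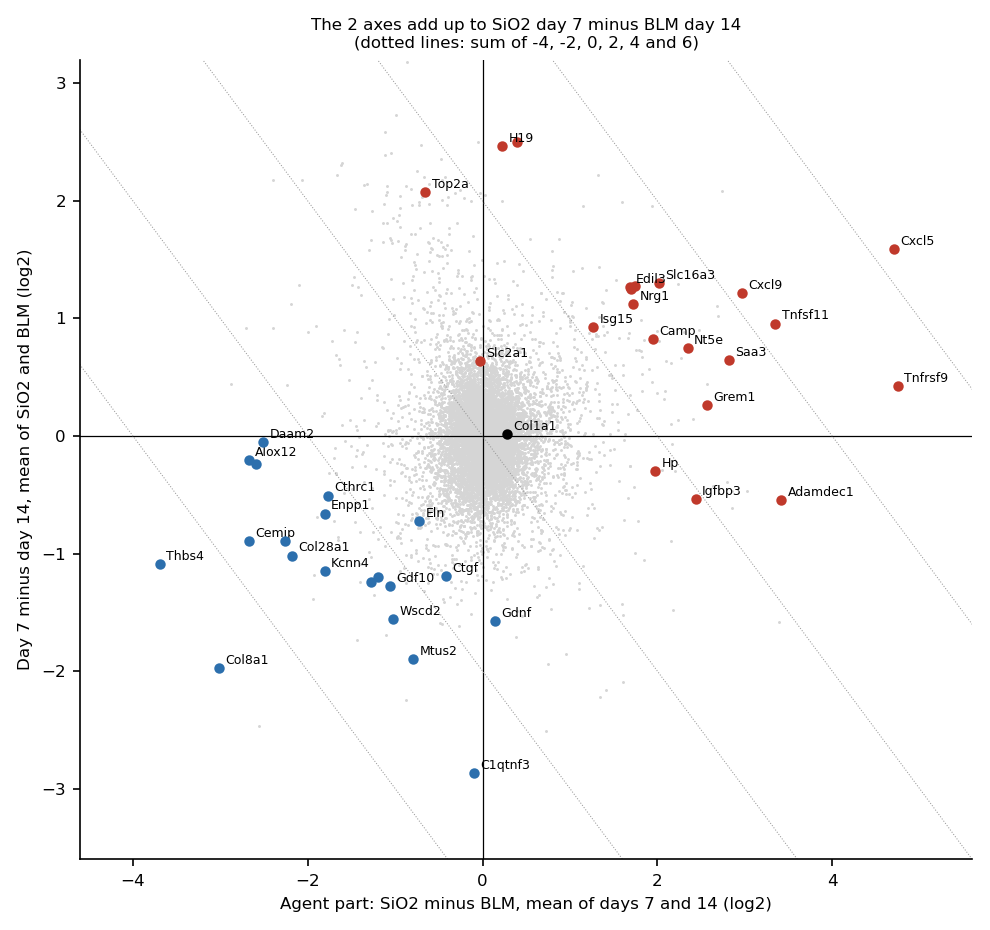
Agent part (SiO2 minus BLM, mean of days 7 and 14, log2) against the reversed day part (day 7 minus day 14, mean of SiO2 and BLM, log2) for each tested gene (grey) and for selected genes, red higher and blue lower in SiO2 day 7. The axes add up to SiO2 day 7 minus BLM day 14. Cxcl5 lies far right, H19 and Top2a lie high with an agent part smaller than the day part, and Col1a1 (black) lies near the centre. For H19 the agent part averages opposite differences at day 7 and day 14.

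By list, the interferon-response genes had a median agent part of 1.07 and a median day part of -0.46, and the MHC class I genes 0.79 and -0.21. The mitosis genes had -0.78 and -1.6. Within day 7 their sum was 743.7, 863.4 and 1030 CPM with SiO2 and 704.5, 841.4 and 788.5 CPM with BLM, with overlap, and within day 14 it was 243.1, 187.9 and 157.4 CPM with SiO2 and 633.9, 389.4 and 359.5 CPM with BLM, so the SiO2 libraries lay lower at day 14 and not at day 7. The TGF-beta, BMP and activin list had -0.09 and 0.25, the alveolar list 0.02 and 0.35, and the glycolysis list 0.34 and -0.26. Over all tested genes these medians were 0.01 and 0.01.

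SiO2 day 14 against BLM day 7 shares no library with the main pair and puts the days the other way round. In that comparison 1533 genes (13.1%) were called, 811 (6.95%) higher and 722 (6.19%) lower in SiO2 day 14; without BLM day 7 replicate 2 the called genes numbered 1000 and the higher ones 506. Of the 662 genes higher in SiO2 day 7 than in BLM day 14, 151 (22.8%) were also higher in SiO2 day 14 than in BLM day 7, 138 (20.8%) were lower and 373 were not called. Those 151 and 138 genes were 18.6% of the higher and 19.1% of the lower list of the second comparison. Of the 696 genes lower in SiO2 day 7, 72 (10.3%) were lower again, 130 (18.7%) were higher and 494 were not called; the 72 and 130 genes were 9.97% and 16% of the lower and the higher list of the second comparison. Among the higher genes, 151 thus kept the direction and 138 turned round when the days were exchanged, and among the lower genes 72 kept it and 130 turned round. The 138 fell to 80 without SiO2 day 7 replicate 3, 71 without BLM day 14 replicate 2 and 65 without BLM day 14 replicate 3.

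Among those that kept the direction, Cxcl5 had 35.1, 35.4 and 26 CPM in SiO2 day 14 and 4.64, 3.7 and 2.54 CPM in BLM day 7 (3.12 ± 0.25, adjusted p = 2.24e-10). Hp had 596, 621 and 342 CPM in SiO2 day 14 and 109, 122 and 89.7 CPM in BLM day 7 (2.28 ± 0.16, adjusted p = 2.74e-11). Cemip was again lower, at 46.6, 56.5 and 28.2 CPM in SiO2 day 14 and 65, 198 and 188 CPM in BLM day 7 (-1.78 ± 0.25, adjusted p = 5.25e-06). The groups did not overlap in these 3 genes.

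Among those that turned round, Top2a had 27.9, 19.2 and 9.48 CPM in SiO2 day 14 and 106, 143 and 119 CPM in BLM day 7 (-2.73 ± 0.30, adjusted p = 1.01e-07). H19 was lower as well, at 8.62, 6.13 and 2.43 CPM in SiO2 day 14 and 15.7, 29.6 and 34.5 CPM in BLM day 7 (-2.25 ± 0.31, adjusted p = 4.79e-06). Gdnf (1.71 ± 0.25) and Ctgf (0.78 ± 0.14) were lower in SiO2 day 7 than in BLM day 14 and higher in SiO2 day 14 than in BLM day 7. Of the interferon-response list 10 of 31 genes were called higher in SiO2 day 14 and none lower (median 0.51), with list sums of 4297, 3782 and 3243 CPM in SiO2 day 14 and 4024, 2046 and 1918 CPM in BLM day 7, where replicate 1 of BLM day 7 stood above the other 2. That count rested on single libraries: it was 22 higher and 1 lower without BLM day 7 replicate 1, 1 higher without BLM day 7 replicate 2 or 3 or SiO2 day 14 replicate 1, 6 higher by DESeq2 and 17 higher and 1 lower with no filter on low counts. Of the mitosis list 33 of 35 were called lower in SiO2 day 14 and none higher (median -2.37).

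**Figure D5:**
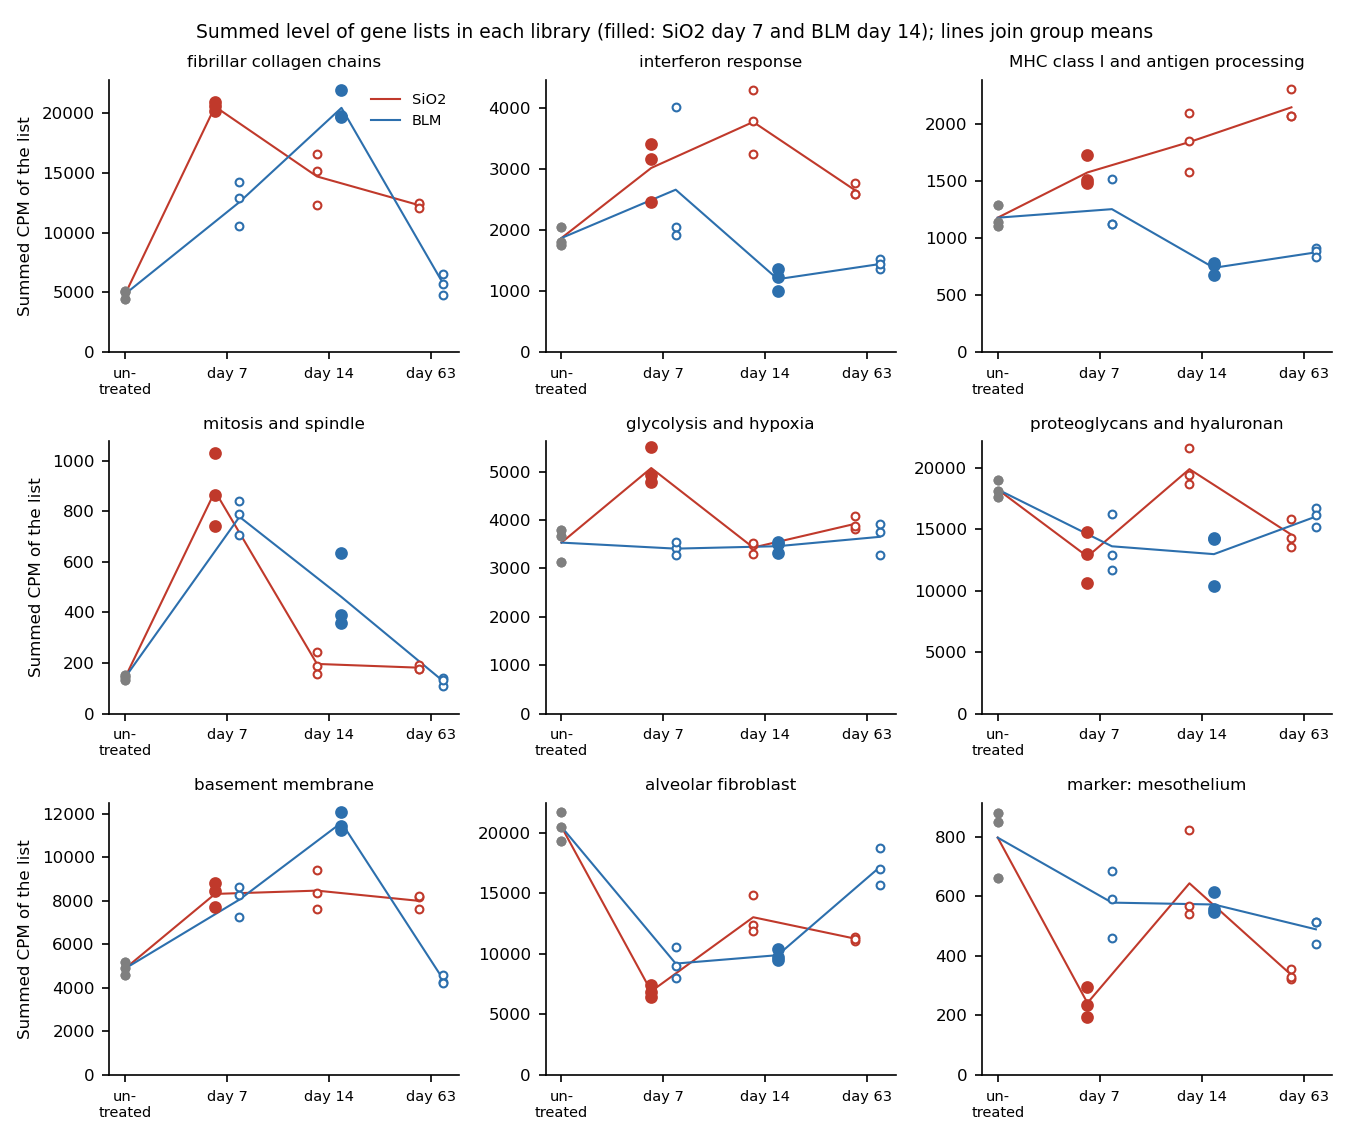
Summed level (CPM, linear axes from 0) of 9 gene lists in each library of untreated, day 7, day 14 and day 63; red is SiO2, blue BLM, grey untreated, lines join group means and filled points are SiO2 day 7 and BLM day 14. The fibrillar collagens meet at about the same level in these groups, and the interferon-response, MHC class I and glycolysis sums lie higher and the basement membrane, alveolar and mesothelial sums lower in SiO2 day 7.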

How the data were processed

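The authors deposited raw 3′SAGE-seq counts for each gene symbol, with a file for each library. Bowtie2 2.2.5 and mm10 are named, per the submitters' processing notes; the annotation, counting program and strand setting are not given in the sources used here, so genes that share sequence with a copy or overlap an antisense gene are uncertain. Coordinates came from GENCODE vM21 by gene name (10737 of 11669 tested symbols matched) and promoters from RefSeq.

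Libraries were grouped by their labels. A single edgeR 4.0.16 quasi-likelihood model (R 4.3.3) was fitted to all 21 libraries with the 7 groups as a factor, TMM scaling and the default filter on low counts, which kept 11669 of 23204 symbols and left 14 residual degrees of freedom. P-values were adjusted over these genes (Benjamini-Hochberg), and 0.05 was the threshold; every p printed is from this test unless another is named. Libraries of a group differed by more than counting noise. In data simulated for SiO2 day 7 against BLM day 14 with 11669 genes, 91.7% of 4-fold, 61.2% of 2-fold and 29.5% of 1.5-fold changes were recovered. Over 5 simulations 324 to 329 genes carried each fold, and the other genes had the same mean in all groups. That is a smaller share of changed genes than was called in the data, where recovery may differ.

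Genes were eligible for naming if they were among the 15 highest and 15 lowest log2 differences of called genes with no overlap between libraries and at least 10 CPM in the higher group, among up to 4 members with the smallest p in each of 47 gene lists, or in a written set of collagen, matrix, chemokine, division and alveolar genes. Genes outside these are said to be chosen after their values were seen, and which eligible genes are described was also decided then. The pair, its members and the lists were chosen with earlier results of these data known. RLE and upper quartile scaling, DESeq2 1.42.0, limma-voom (limma 3.58.1), no filter and a stricter filter, a replicate block, the 6 libraries alone and leaving out each library were the alternatives.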

Additional observations from a re-analysis of the deposited data

Results flagged for a closer look

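For the 30 genes that led SiO2 day 7 against BLM day 14, the difference of SiO2 minus BLM was also taken within each day, and the change of that difference between the days (day 14 minus day 7) was tested in edgeR with adjustment over all genes. It passed for 12 of the 30, against 2242 of all 11669 tested genes. The 30 were picked for a large difference in SiO2 day 7 against BLM day 14 in these same libraries, so the change is not independent of that choice. All 12 changes were negative, and they are given as a description, without their p.

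For 6 genes the difference was larger at day 7. Slc16a3 differed by 0.50 at day 14 and 3.54 at day 7, a change of -3.04. Nt5e differed by -0.01 at day 14 and 4.70 at day 7 (change -4.71), and Edil3 by -0.44 at day 14 and 3.80 at day 7 (change -4.24). The change was -4.21 for Adamdec1, -3.71 for Grem1 and -1.55 for Nrg1, with SiO2 above BLM at both days in these 3 genes.

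For the other 6 the SiO2 libraries were lower by more at day 14. Col8a1 differed by -5.69 at day 14 and -0.35 at day 7, a change of -5.35, and Thbs4 by -5.84 at day 14 and -1.54 at day 7 (change -4.29). The change was -2.52 for Cemip, -2.25 for Kcnn4, -1.0 for Daam2 and -0.66 for Enpp1. Several of these genes had few counts in at least 1 group, and the sizes of their fitted changes rest on those counts.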

How the results depend on the processing

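Between 1174 and 1377 genes were called in SiO2 day 7 against BLM day 14 under RLE or upper quartile scaling, DESeq2, limma-voom, no filter and the stricter filter, and 1179 with its 6 libraries fitted alone. With 1 library left out the count ran from 920 to 1197, its higher genes from 426 (without BLM day 14 replicate 3) to 589 and its lower genes from 479 to 614. In SiO2 day 14 against BLM day 7 leaving out 1 library gave 1000 (without BLM day 7 replicate 2) to 1478 called genes and 506 to 793 higher ones; the cause was not tested. Of 166 named genes called, 148 to 155 kept their call and direction without 1 library, and none turned round under any alternative.

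Replicate numbers are shared between the groups, but no label says that they mark a shared litter or day. Same-numbered libraries of SiO2 day 7 and BLM day 14 deviated from their group means with correlations of -0.101, 0.006 and -0.066, so the number was not taken as a pairing. With it as a replicate block 1303 genes were called in SiO2 day 7 against BLM day 14, 1477 in SiO2 day 14 against BLM day 7, 987 for the agent averaged over days and 1734 for the day averaged over agents.

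With 3 libraries a group and 2904599 to 4159193 counts, differences under 2-fold were often not detectable, and a gene that missed the threshold is not shown to be equal. Agent and day cannot be told apart within the pair, differences of genes near 0 counts depend on the prior count of the fit, and whether libraries of a group came from separate mice is not stated.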
